A study of Homo sapiens with 18 samples.

Results

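The 10 genes described here encode receptors and carriers that load proteins into vesicles between the endoplasmic reticulum (ER) and the Golgi, or bring escaped ER proteins back. They were chosen by name and family, with earlier results of these data known, and no measured value enters the rule. They are the ERGIC proteins (ERGIC1, ERGIC2 and ERGIC3), the lectins LMAN1 and LMAN2 with the LMAN1 partner MCFD2, the KDEL receptors (KDELR1, KDELR2 and KDELR3) and SURF4. They are 10 of the 25435 gene rows counted, and all 10 passed the filter on low counts in every comparison.

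RNA-Seq was carried out on HEK293doxERN2 cells, a HEK293 human embryonic kidney line with a doxycycline-inducible FLAG-ERN2 transgene. ERN2 (IRE1β) is an ER membrane kinase and endoribonuclease of mucus-secreting epithelia. All groups carried the transgene, and doxycycline was present for 24 hours at 0 ng/mL (no ERN2), 10 ng/mL (low ERN2) or 100 ng/mL (high ERN2). At each dose, 3 libraries came from cells given DMSO vehicle and 3 from cells treated over 3 hours with thapsigargin (200 nM), which causes ER stress by blocking the calcium pump, for 18 libraries in 6 groups. No group received doxycycline without the transgene, so the drug and the induced protein cannot be told apart, and whether the line is 1 clone is not given in the sources used here.

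In the secretory pathway, new proteins leave the ER in COPII-coated vesicles and pass through the ER-Golgi intermediate compartment. Soluble cargo needs a membrane receptor to be packed efficiently: LMAN1 (ERGIC-53) with MCFD2 carries coagulation factors V and VIII and some lysosomal cathepsins, LMAN2 (VIP36) binds high-mannose glycans, and SURF4 carries several secreted and luminal proteins. KDEL receptors sit in the Golgi and return chaperones that end in KDEL or a similar tail to the ER in COPI-coated vesicles. ERGIC1, ERGIC2 and ERGIC3 are membrane proteins that cycle between both organelles, and ERGIC2 and ERGIC3 are the human relatives of yeast Erv41 and Erv46.

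Between 14876416 and 24652240 reads were counted on genes per library, and replicates of a group differed beyond sampling noise in all 18 pairs (chi-square per degree of freedom 7.33 to 63.8). High ERN2 stress replicate 1 lay farthest from its group mean, with a root mean square deviation of 0.36 on the log2 scale. Replicates 2 and 3 of that group came next, at 0.33 and 0.30, and the lowest library had 0.19. Calls that changed without high ERN2 stress replicate 1 are given both ways. ERN2 checked the labels, at 6.66 to 9.26 CPM (reads of the gene scaled to library size) in the uninduced vehicle libraries, 23.0 to 56.8 at 10 ng/mL and 244 to 308 at 100 ng/mL. With thapsigargin it was at 10.5 to 14.4, 32.3 to 111 and 167 to 268 CPM in the same order of doses. The labels' extraction text names colon crypt cells, but 8 of 11 colon epithelium markers had at most 5 counts in any library, among them MUC2, VIL1 and KRT20, and TFF3 had 0 in all. The other 3 (CDX2, EPCAM and LGR5) were detected, and the 11 together made up 20.6 to 60.1 CPM. All 5 HEK293 markers were detected, at 1467 to 2514 CPM together, most of it from VIM (1359 to 2361). PAX2 was the lowest of them, at 1.16 to 4.43 CPM, below EPCAM (6.93 to 22.6) and LGR5 (8.40 to 36.0). The part of these markers in the results below was not tested. Nothing in the labels says that replicates were separate cultures, so p-values measure the spread between these samples. In bulk RNA, fewer cells with a transcript and less transcript per cell cannot be told apart.

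Regulatory sequence of these genes is of interest because ERN2 and its relative ERN1 cut a stem-loop in XBP1 mRNA, and the resulting XBP1 factor and the ATF6 factor bind short elements in promoters of ER genes. Windows around the start site were taken from RefSeq on GRCh38.p14 for 8 of the 10 genes, with 3 windows for MCFD2, while ERGIC1 and KDELR2 have no entry. They were searched on both strands for ERSE, ERSE-II, the UPRE core (TGACGTG) and the C/EBP-ATF element (TGATGCAA). Only KDELR3 held a match, to the UPRE core on the minus strand, 45 bases before the start site at chr22:38468051-38468057, overlapping no other motif. Of 35116 RefSeq windows of this length, 1.97% held a UPRE core, 0.0769% an ERSE, 0.0541% an ERSE-II and 0.866% a C/EBP-ATF element. The stretches before the GENCODE transcript start are shown for KDELR3 (chr22:38467846-38468061, plus strand), since it holds that match in capitals, and for ERGIC3 (chr20:35541828-35542020, plus strand), since it had the lowest fold change in induced vehicle cells and holds no match.
KDELR3: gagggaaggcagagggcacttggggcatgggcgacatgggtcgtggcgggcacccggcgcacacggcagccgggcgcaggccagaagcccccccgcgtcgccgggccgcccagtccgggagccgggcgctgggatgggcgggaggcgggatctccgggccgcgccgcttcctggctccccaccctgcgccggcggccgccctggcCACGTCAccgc
ERGIC3: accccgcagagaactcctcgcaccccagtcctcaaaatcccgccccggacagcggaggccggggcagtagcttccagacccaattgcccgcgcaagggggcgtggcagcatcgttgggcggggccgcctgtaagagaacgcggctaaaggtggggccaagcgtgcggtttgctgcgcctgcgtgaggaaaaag

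Transcripts of the 10 genes (GENCODE 29 on GRCh38, 1 per gene) were also searched for an XBP1-like stem-loop, written CNGCAGN as DNA, closed by at least 4 Watson-Crick pairs. ERGIC1 alone among them held one, in its 3′ untranslated region within 1 exon at chr5:172951110-172951124 on the plus strand. It is shown because ERGIC1 and ERGIC3 had the lowest fold changes of the group, with the loop in capitals and the pairing arms in lower case.
ERGIC1: agagCTGCAGTctct
The same search found a match in 3.83% of 12748 expressed genes. For XBP1 itself, the 1 transcript taken by the same rule held 0 matches. A wider search of all 5 coding transcripts of XBP1 found a match in 3. Other transcripts of the 10 genes were not searched, so a stem-loop in them could have been missed. ERGIC3, whose values below closely followed those of ERGIC1, held none in its 1357-base transcript. Such letter matches are descriptions and not sites of action.

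At 100 ng/mL doxycycline in vehicle-treated cells, 5 of the 10 genes fell and none rose by edgeR's quasi-likelihood test (adjusted p under 0.01), while 8.33% of the 14444 genes tested were called (7.49% lower, 0.838% higher). ERGIC1, ERGIC3, KDELR1, KDELR2 and MCFD2 were lower. The median log2 fold change of the 10 genes was -0.67, against -0.01 over all genes. All 3 induced libraries lay below all 3 uninduced ones for 7 genes and above them for 1, where 18.3% and 14.8% of all genes did so.

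ERGIC1 (chr5:172834275-172952685, plus strand) and ERGIC3 (chr20:35542021-35557634, plus strand) had the lowest fold changes of the group. ERGIC1 was at 125.5, 120.2 and 137.2 CPM in the uninduced vehicle libraries, 81.9, 98.2 and 68.2 at 10 ng/mL and 26.8, 32.8 and 33.6 at 100 ng/mL. ERGIC3 was at 161, 150 and 169 CPM without induction, 104, 134 and 74.5 at 10 ng/mL and 35.3, 38.9 and 37.2 at 100 ng/mL. For both genes the 3 doses formed 3 ranges that did not overlap. ERGIC1 fell by 2.04 on the log2 scale at the higher dose (standard error, SE, 0.12, adjusted p = 3.62e-07), a fold of 0.244, and only 0.457% of genes had a lower fold change. ERGIC3 fell by 2.11 (SE 0.11, adjusted p = 1.68e-07), a fold of 0.232, at the 0.374 percentile.

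ERGIC2, a partner of ERGIC3, had a different course. It was at 48.8, 70.2 and 48.3 CPM in uninduced vehicle libraries, 46.0, 35.6 and 33.2 at 10 ng/mL and 40.7, 26.7 and 41.0 at 100 ng/mL. The libraries at both doses lay below the uninduced ones, but the log2 fold change at 100 ng/mL of -0.63 did not pass the threshold (SE 0.19, adjusted p = 0.0428). ERGIC2 has 3629 exonic bases inside FAR2, on the opposite strand, in GENCODE 29, and whether the counting used strand is not given in the sources used here.

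**Figure D1:**
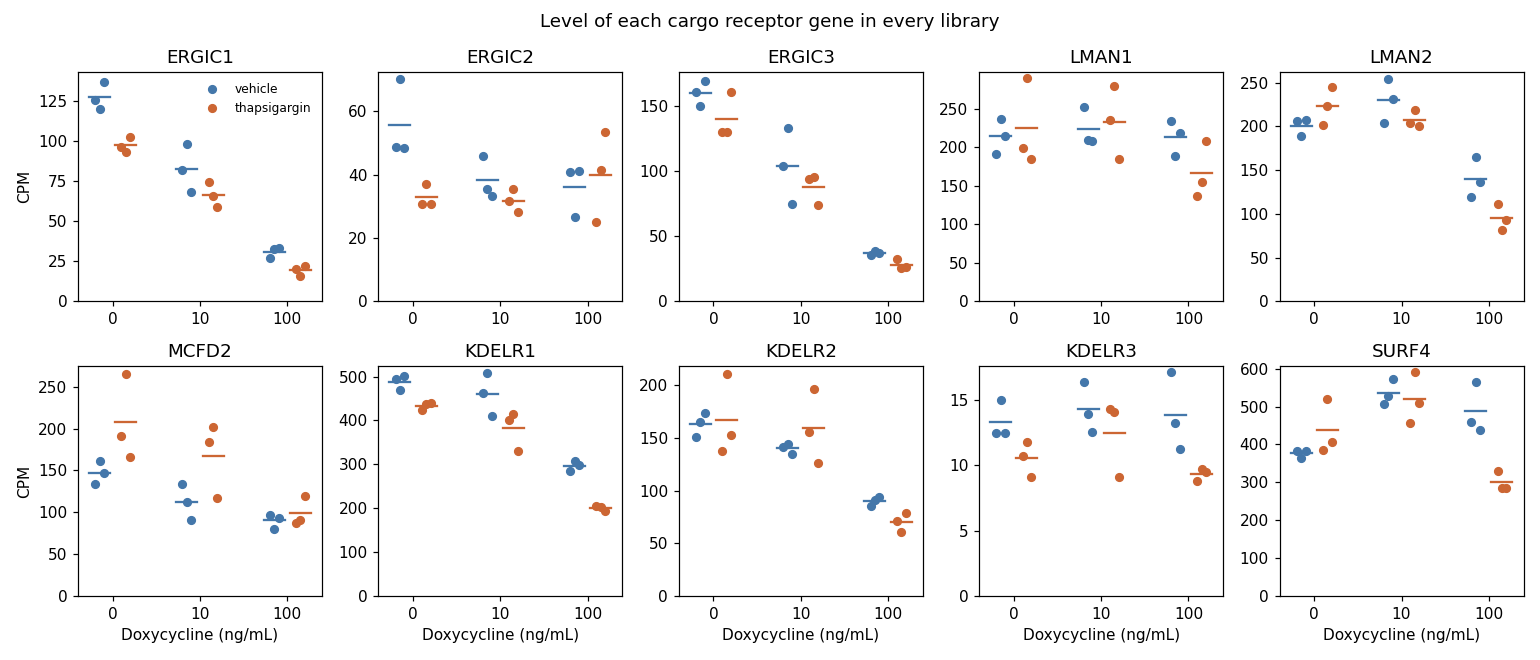
CPM of each of the 10 genes (vertical axes from 0) in every library at 0, 10 and 100 ng/mL doxycycline, vehicle in blue and thapsigargin in orange, with a bar at the mean of the 3 libraries. ERGIC1 and ERGIC3 step down at each dose, KDELR1, KDELR2 and LMAN2 are lowest at 100 ng/mL, and LMAN1 and KDELR3 keep overlapping ranges in vehicle-treated cells.

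Among the KDEL receptors, which bind the tails of escaped ER proteins, KDELR1 and KDELR2 fell at 100 ng/mL in vehicle-treated cells. KDELR1 (chr19:48382570-48391553, minus strand) was at 493, 470 and 500 CPM without induction, 463, 508 and 411 at 10 ng/mL and 284, 307 and 299 at 100 ng/mL, so that the 3 libraries lay below all uninduced ones at the higher dose and on both sides of their range at the lower. At -0.72 on the log2 scale it passed the test (SE 0.09, adjusted p = 0.00017). KDELR2 (chr7:6445953-6484242, minus strand) was at 151, 165 and 174 CPM, then 141, 144 and 135, then 85.7, 91.5 and 93.7, and its 3 ranges did not overlap. At 100 ng/mL it fell by 0.85 (SE 0.10, adjusted p = 9.94e-05). KDELR2 overlaps DAGLB on the same strand in GENCODE 29 over 38238 of its 38290 bases. Of its exonic bases, 3938 lie within the span of DAGLB, introns included. They were not compared with DAGLB exons, and whether the overlap affected the authors' counting was not tested.

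KDELR3 (chr22:38468062-38483447, plus strand), the least expressed KDEL receptor, had 143 to 360 counts per library. It was at 12.5, 15.0 and 12.5 CPM without induction, 16.35, 13.95 and 12.53 at 10 ng/mL and 17.2, 13.2 and 11.3 at 100 ng/mL. These ranges overlapped, and at 100 ng/mL KDELR3 had a log2 fold change of 0.06 (SE 0.17, adjusted p = 0.85) that turned to -0.12 without high ERN2 control replicate 1. KDELR3 was not called in any of 9 pairwise comparisons.

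LMAN1, the mannose-binding part of the receptor for factors V and VIII, and MCFD2, its calcium-binding soluble partner, diverged. LMAN1 (chr18:59327823-59359962, minus strand) was at 192, 236 and 215 CPM in uninduced vehicle libraries, 252, 210 and 208 at 10 ng/mL and 234, 188 and 219 at 100 ng/mL. These groups overlapped, and at 100 ng/mL the log2 fold change came to -0.00 (SE 0.12, adjusted p = 0.99), 0.01 with DESeq2 or with RLE size factors. MCFD2 (chr2:46901870-46941855, minus strand) was at 133.8, 161.6 and 146.7 CPM, then 133.7, 113 and 91.1, then 97.1, 80.3 and 93.1. All libraries at 100 ng/mL lay below all uninduced ones, and MCFD2 fell by 0.71 (SE 0.12, adjusted p = 0.00101). That call was lost with the fit on all 6 groups (adjusted p = 0.0243) and with the replicate number as a block (adjusted p = 0.0145). MCFD2 has 4332 exonic bases inside the antisense AC016722.2 and 284 inside TTC7A, both on the opposite strand.

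Because both partners were counted in the same library, their ratio does not depend on library size. This ratio was chosen after its values were seen, and it is a ratio of counts, not of molecules. For 100 LMAN1 counts the uninduced vehicle libraries held 69.8, 68.4 and 68.4 MCFD2 counts, those at 10 ng/mL 53.1, 53.7 and 43.8, and those at 100 ng/mL 41.4, 42.7 and 42.5. With thapsigargin the same ratio was 96.2, 91.4 and 89.8 without induction, 78.1, 72.1 and 63.1 at 10 ng/mL and 63.3, 58.6 and 57.7 at 100 ng/mL. The 3 vehicle ranges were separate from each other, and at each dose all 3 thapsigargin libraries had more MCFD2 per LMAN1 than all 3 vehicle libraries. The mean log2 difference was -0.71 for 100 against 0 ng/mL in vehicle-treated cells (-1.24 ± 0.02 against -0.54 ± 0.02, SD, n = 3, two-sided exact permutation p = 0.1, the smallest that 3 against 3 libraries allow) and 0.43 for thapsigargin without induction. Of 35 such tests on 7 ratios, 17 reached that smallest p, and the adjusted p was 0.206 at the lowest.

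LMAN2 (chr5:177331562-177351852, minus strand), a lectin of the same family as LMAN1, was at 207, 189 and 207 CPM in uninduced vehicle libraries, 204, 254 and 231 at 10 ng/mL and 119, 166 and 137 at 100 ng/mL. The libraries at 100 ng/mL lay below the others, but the log2 fold change against no ERN2 of -0.52 did not pass (SE 0.13, adjusted p = 0.0148). It passed without high ERN2 control replicate 2 (-0.65, adjusted p = 0.000305).

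SURF4 (chr9:133361449-133376166, minus strand), an ER export receptor, was the only member whose induced vehicle libraries all lay above the uninduced ones, at both doses. It was at 382, 365 and 383 CPM without induction, 508, 528 and 574 at 10 ng/mL and 460, 566 and 437 at 100 ng/mL. Neither difference passed the threshold. It was 0.51 on the log2 scale at 10 ng/mL (SE 0.09, adjusted p = 0.0263) and 0.37 at 100 ng/mL (SE 0.11, adjusted p = 0.044). Set against KDELR1 within the library, again chosen after the values were seen, 77.4, 77.7 and 76.5 SURF4 counts per 100 KDELR1 counts without induction stood beside 110, 104 and 139 at 10 ng/mL and 162, 184 and 146 at 100 ng/mL.

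**Figure D2:**
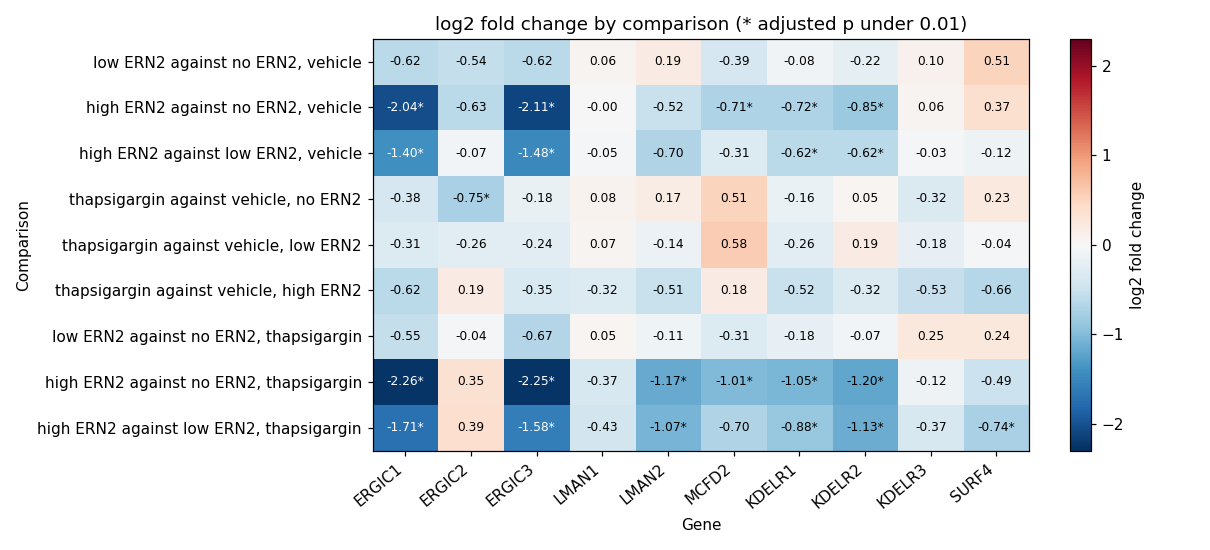
log2 fold change of each of the 10 genes (columns) in the 9 pairwise comparisons (rows), blue for lower and red for higher, with a star at an adjusted p under 0.01 from edgeR's quasi-likelihood test. The comparisons that share a group are not independent of each other. Stars stand in the rows that set high against no or low ERN2, and once for ERGIC2 in thapsigargin against vehicle without ERN2.

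At 10 ng/mL in vehicle-treated cells, none of the 10 genes passed the threshold, where 0.193% of the 14497 genes tested did (28 genes, 0.138% higher and 0.0552% lower). At an unadjusted p under 0.05 there were 4421 genes and 5 members, and DESeq2 called 378 of 11763 genes, 2 of them members. The comparison shares its uninduced libraries with that at 100 ng/mL. All 3 libraries lay below the uninduced ones for 5 genes (ERGIC1, ERGIC2, ERGIC3, MCFD2 and KDELR2) and above them for SURF4, where 15.4% and 14.4% of all genes did so. ERGIC1 had a log2 fold change of -0.62 (SE 0.13, adjusted p = 0.0535) and ERGIC3 of -0.62 (SE 0.17, adjusted p = 0.0775). The outcome rested on low ERN2 control replicate 1: without it 2743 genes were called, and with them ERGIC1 (-0.62, adjusted p = 0.00349), ERGIC2 (-0.70, adjusted p = 0.00357), MCFD2 (-0.53, adjusted p = 0.0038) and SURF4 (0.55, adjusted p = 0.000896).

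The 3 libraries at 10 ng/mL differed in ERN2 itself. In vehicle-treated cells ERN2 was at 23.0, 27.2 and 56.8 CPM in replicates 1 to 3, and with thapsigargin at 32.3, 54.5 and 111 CPM. Replicate 3, the one with the most ERN2 in both groups, had the lowest level of its group in both for all members but LMAN2 and SURF4. The share of all genes that did so was not counted. Over all genes kept, the deviations of the replicate 3 libraries from their group means correlated at 0.44. The members lowest in replicate 3 were ERGIC1, ERGIC3, KDELR1, KDELR2 and MCFD2, but also ERGIC2, LMAN1 and KDELR3. Of these, LMAN1 and KDELR3 were called in no comparison. At 100 ng/mL with thapsigargin, ERN2 was at 268, 169 and 167 CPM. Replicate 1, with the most ERN2, had the most ERGIC3 (32.5 against 26.0 and 26.3 CPM), LMAN2, KDELR1 and SURF4 of its group. It had the least ERGIC2, LMAN1, MCFD2 and KDELR3, while ERGIC1 and KDELR2 lay between. Whether ERN2 level had a part in these differences was not tested.

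**Figure D3:**
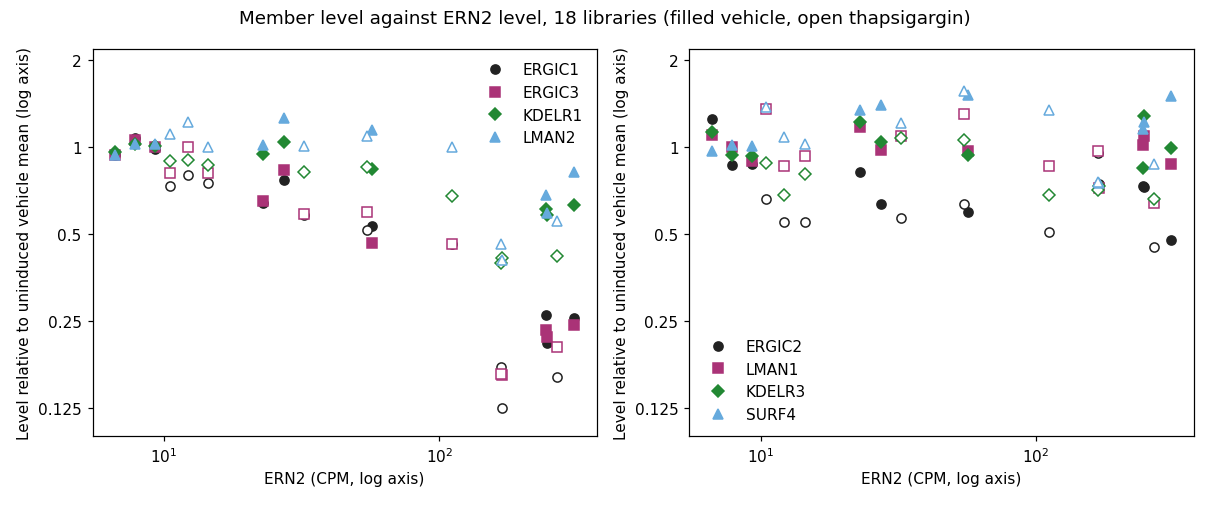
Level of 8 genes relative to their mean in the uninduced vehicle libraries (vertical log axis) against ERN2 in CPM (horizontal log axis) in each of 18 libraries, filled for vehicle and open for thapsigargin. ERGIC1 and ERGIC3 lie lower than KDELR1 and LMAN2 in every library at 100 ng/mL, and SURF4 lies above 1 in vehicle-treated induced libraries and below 1 in thapsigargin-treated libraries at 100 ng/mL.

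Between the 2 doses in vehicle-treated cells, 4 genes were lower at 100 than at 10 ng/mL and none was higher, against 2.45% of 14549 genes called (2.43% lower, 0.0137% higher). All 3 libraries at 100 ng/mL lay below those at 10 ng/mL for 5 members and above them for none, where 14.4% and 6.76% of all genes did so. The 4 that passed were ERGIC1 (log2 fold change -1.40, SE 0.16, adjusted p = 0.00248), ERGIC3 (-1.48, SE 0.19, adjusted p = 0.00303), KDELR1 (-0.62, SE 0.11, adjusted p = 0.00868) and KDELR2 (-0.62, SE 0.10, adjusted p = 0.00677). LMAN2 had a log2 fold change of -0.70 with separate groups and did not pass (SE 0.13, adjusted p = 0.0126). It passed in 6 of 11 alternatives, among them without low ERN2 control replicate 1 (-0.77, adjusted p = 0.00323) or high ERN2 control replicate 2 (-0.82, adjusted p = 0.00482). All 4 calls were lost without low ERN2 control replicate 2, high ERN2 control replicate 1 or high ERN2 control replicate 3. Over all genes, 9, 21 and 0 were called in those fits, in that order, in place of 356. In those fits the log2 fold change of ERGIC1 stayed between -1.48 and -1.26 and its adjusted p reached 0.0253.

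With thapsigargin, 6 genes were lower at 100 ng/mL than without doxycycline and none was higher, against 10.5% of 14358 genes called (9% lower, 1.53% higher). The 6 were ERGIC1, ERGIC3, LMAN2, MCFD2, KDELR1 and KDELR2, and the median log2 fold change of the 10 genes was -1.03, against 0.04 over all genes. All 3 induced libraries lay below all 3 uninduced ones for 7 genes and above them for none, where 23.2% and 12.4% of all genes did so.

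ERGIC1 was at 96.3, 93.3 and 102 CPM with thapsigargin alone and at 20.4, 16.0 and 22.1 with 100 ng/mL doxycycline, and it fell by 2.26 on the log2 scale (SE 0.16, adjusted p = 2.99e-06). ERGIC3 was at 130.0, 130.3 and 161 CPM and then at 32.5, 26.0 and 26.3, and it fell by 2.25 (SE 0.16, adjusted p = 2.61e-06). For both, the groups were far from overlapping, as in vehicle-treated cells. For 100 ERGIC3 counts the libraries held 77.9, 80.0 and 81.1 ERGIC1 counts in uninduced vehicle cells and 76.0, 84.3 and 90.3 at 100 ng/mL, a difference in the mean log2 ratio of 0.06 (two-sided exact permutation p = 0.5). With thapsigargin that difference was -0.02 (exact permutation p = 0.8).

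LMAN2 went from 202, 224 and 246 CPM with thapsigargin alone to 112, 81.7 and 93.1 at 100 ng/mL, a fall of 1.17 on the log2 scale (SE 0.15, adjusted p = 0.000132). KDELR1 went from 423, 437 and 440 to 205, 202 and 194 CPM (log2 fold change -1.05, SE 0.12, adjusted p = 7.41e-05). KDELR2 went from 138, 210 and 153 to 70.9, 60.5 and 78.2 CPM (-1.20, SE 0.18, adjusted p = 0.000492). None of these groups overlapped. MCFD2 went from 192, 265 and 166 to 87.0, 90.5 and 120 CPM, also without overlap, and fell by 1.01 (SE 0.20, adjusted p = 0.00293). The MCFD2 call was lost without no ERN2 stress replicate 2 (adjusted p = 0.0166) or high ERN2 stress replicate 2 (adjusted p = 0.0267).

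SURF4, at 386, 521 and 408 CPM with thapsigargin alone, was at 329, 284 and 286 at 100 ng/mL. These groups did not overlap, and the log2 fold change of -0.49 did not pass (SE 0.15, adjusted p = 0.0348). ERGIC2 was at 30.7, 36.9 and 30.8 CPM and then at 25.1, 41.6 and 53.4 (0.35, SE 0.24, adjusted p = 0.317). High ERN2 stress replicate 1 held the lowest ERGIC2 level and the highest SURF4 level of its group. Without that library both passed, ERGIC2 at 0.62 (adjusted p = 0.00433) and SURF4 at -0.54 (adjusted p = 0.0067), and 3950 genes were called in place of 1512. LMAN1 (-0.37, SE 0.20, adjusted p = 0.206) and KDELR3 (-0.12, SE 0.19, adjusted p = 0.706) did not pass, and their groups overlapped.

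Between the doses with thapsigargin, 6 genes were lower at 100 than at 10 ng/mL, against 5.55% of 14493 genes called (5.32% lower, 0.235% higher). The groups did not overlap for those 6, all lower, where 20.7% of all genes lay lower and 10.1% higher without overlap. SURF4 joined ERGIC1, ERGIC3, LMAN2, KDELR1 and KDELR2, while MCFD2 did not pass (log2 fold change -0.70, SE 0.21, adjusted p = 0.0407). SURF4 was at 457, 591 and 509 CPM at 10 ng/mL and fell by 0.74 (SE 0.15, adjusted p = 0.00535). The SURF4 call was lost in 5 of 6 fits that left out a library, with an adjusted p up to 0.0626, and it held only without high ERN2 stress replicate 1 (-0.77, adjusted p = 0.00177). Without that library ERGIC2 was also called, as higher (0.67, adjusted p = 0.0089), and 2712 genes were called in place of 805. ERGIC1 (-1.71, SE 0.18, adjusted p = 0.000325) and ERGIC3 (-1.58, SE 0.17, adjusted p = 0.000325) passed whichever library was left out. Of the 6 genes, 2 remained called without low ERN2 stress replicate 2 or high ERN2 stress replicate 2 and 3 without low ERN2 stress replicate 1. Over all genes, 143, 42 and 217 were called in those fits, in that order, in place of 805.

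At 10 ng/mL with thapsigargin no gene of the 14509 tested was called (0%) by edgeR's quasi-likelihood test, with 612 genes and 2 members at an unadjusted p under 0.05, and DESeq2 called 39 of 11387 genes, of which 1, ERGIC3, was a member. ERGIC1 was at 74.6, 65.9 and 58.8 CPM and ERGIC3 at 94.3, 95.4 and 74.2, below all libraries with thapsigargin alone. In all, 3 members had their induced libraries below the uninduced ones and none above, where 5.8% and 4.07% of all genes did so. For this pair of groups libraries of the same number deviated together, and with the replicate number as a block 564 genes were called. With that block 4 members passed: ERGIC1 (log2 fold change -0.55, adjusted p = 5.31e-05), ERGIC3 (-0.67, adjusted p = 4.6e-05), MCFD2 (-0.32, adjusted p = 0.00466) and SURF4 (0.25, adjusted p = 0.00261).

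Thapsigargin itself was compared with vehicle at each dose. Without doxycycline it left 9 of the 10 genes without a call, while 11.2% of 14397 genes were called (6.45% higher, 4.74% lower). All thapsigargin libraries lay above all vehicle ones for MCFD2 and SURF4, and below them for ERGIC1, ERGIC2, KDELR1 and KDELR3, where 19.8% and 20.2% of all genes did so. ERGIC2 fell by 0.75 on the log2 scale (SE 0.16, adjusted p = 0.00434), from 48.8, 70.2 and 48.3 to 30.7, 36.9 and 30.8 CPM, with no overlap. That call was lost without no ERN2 stress replicate 1 (adjusted p = 0.0197) and with the fit on all 6 groups (adjusted p = 0.0281). MCFD2 went from 133.8, 161.6 and 146.7 to 192, 265 and 166 CPM, with separate groups, and its log2 fold change of 0.51 did not pass (SE 0.15, adjusted p = 0.0306). It passed without no ERN2 stress replicate 3 (0.65, adjusted p = 0.00104). ERGIC1 had -0.38 (SE 0.10, adjusted p = 0.0175), and all 3 thapsigargin libraries lay below the vehicle ones.

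At 10 ng/mL thapsigargin called none of the 10 genes, against 1.45% of 14607 genes (1.16% higher, 0.294% lower). All 10 had overlapping groups, where 14.6% of all genes lay higher and 13.7% lower without overlap. At an unadjusted p under 0.05 there were 3602 genes and 1 member, and DESeq2 called 1039 of 13319 genes, 0 of them members. MCFD2 had the highest log2 fold change, 0.58 (SE 0.20, adjusted p = 0.113), and passed without low ERN2 stress replicate 3 (0.78, adjusted p = 0.00772). At 100 ng/mL none passed either, against 0.201% of 14427 genes (0.18% higher, 0.0208% lower). All 3 thapsigargin libraries lay below all 3 vehicle libraries for 7 genes and above them for none, where 15.8% and 10% of all genes did so. At an unadjusted p under 0.05 there were 3892 genes and 7 members, and DESeq2 called 728 of 12902 genes, 2 of them members. SURF4 had -0.66 (SE 0.13, adjusted p = 0.0299), from 460, 566 and 437 to 329, 284 and 286 CPM, and KDELR1 -0.52 (SE 0.11, adjusted p = 0.0393). Without high ERN2 stress replicate 1, SURF4 (-0.74, adjusted p = 0.00118), LMAN2 (-0.65, adjusted p = 0.00474) and KDELR1 (-0.55, adjusted p = 0.00516) passed, and 2568 genes were called in place of 29.

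The difference between the thapsigargin responses was tested as an interaction. At 100 against 0 ng/mL none of the 10 genes passed, against 0.0406% of 14768 genes (6 genes, 0.0339% lower and 0.00677% higher). At an unadjusted p under 0.05 there were 3651 genes and 4 members, and DESeq2 called 341 of 11850 genes, of which 1, SURF4, was a member. The largest in size were ERGIC2, with 1.03 (SE 0.36, adjusted p = 0.111), and SURF4, with -0.80 (SE 0.18, adjusted p = 0.0474). SURF4 had a log2 fold change under thapsigargin of 0.23 without induction and -0.66 at 100 ng/mL. Without high ERN2 stress replicate 1 the interaction passed for SURF4 (-0.92, adjusted p = 0.00374), ERGIC2 (1.23, adjusted p = 0.00618) and LMAN2 (-0.76, adjusted p = 0.00875). Over all genes, 1286 of 14946 were called without that library, in place of 6. At 10 against 0 ng/mL none of 14857 genes was called (0%) by edgeR's quasi-likelihood test, with 664 genes and 1 member at an unadjusted p under 0.05, and DESeq2 called 2 genes and 0 members.

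Levels of different genes were compared after scaling by the length of 1 coding transcript per gene. The places of ERGIC1 and KDELR3 depend on that choice, since their merged exons of all coding transcripts span 7571 and 1899 bases, against 2881 and 931 in the transcript used. In uninduced vehicle cells KDELR1 stood highest, at 313 ± 10.4 CPM per kilobase (SD, n = 3), apart from SURF4 at 126 ± 3.31. SURF4 overlapped ERGIC3 (118 ± 6.98), which overlapped LMAN2 (112 ± 5.68), and LMAN2 stood apart from KDELR2. KDELR2 (56.6 ± 4.06) stood apart from ERGIC1 (44.3 ± 3.01), which overlapped LMAN1 (38.8 ± 4.04), as LMAN1 did MCFD2 (35.01 ± 3.30). KDELR3 (14.3 ± 1.58) and ERGIC2 (11.2 ± 2.52) were lowest and overlapped. At 100 ng/mL in vehicle-treated cells KDELR1 (190.4 ± 7.40) overlapped SURF4 (163 ± 22.9), ERGIC3 stood sixth at 27.4 ± 1.34, and ERGIC1 ninth at 10.8 ± 1.29. With thapsigargin at 100 ng/mL ERGIC1 was the lowest of the 10, at 6.77 ± 1.11 CPM per kilobase, overlapping ERGIC2.

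Across the 18 libraries, the profiles of ERGIC1 and ERGIC3 differed by a root mean square of 0.16 on the centred log2 CPM scale, the smallest of the 45 pairs of members. KDELR1 and LMAN2 differed by 0.18, KDELR1 and KDELR2 by 0.22, and KDELR3 and LMAN1 by 0.22, while LMAN1 and MCFD2 differed by 0.37 and ERGIC2 and ERGIC3 by 0.96. Among 15023 genes, the profiles most like ERGIC3 were those of SHISA5 (0.12) and STIM1 (0.13), and those most like ERGIC1 were LTBP1 and FUCA2 (0.13 and 0.14). For KDELR1 they were FOXRED2 and SULF2 (0.07 and 0.09), for KDELR2 CDH2 and ESYT2 (both 0.15), and for LMAN2 PCSK7 and FAM3A (both 0.09). For MCFD2 they were PRNP and SLC38A1 (0.14 and 0.15), for SURF4 WFS1 and SLC39A7 (0.11 and 0.12), and for ERGIC2 IFNAR1 and CNTNAP2 (both 0.14). The points share library, depth and treatment, so these are descriptions.

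The proteins that KDEL receptors retrieve were followed as a list of 26 ER luminal genes with a KDEL-type tail, all tested. In vehicle-treated cells at 100 ng/mL, 2 rose, 8 fell and 16 did not pass (median log2 fold change -0.24). Of all genes tested there, 0.838% rose and 7.49% fell. HSPA5, the ER chaperone BiP, rose by 0.84 (SE 0.10, adjusted p = 8.68e-05) and PDIA4, a disulfide isomerase, by 0.53 (SE 0.11, adjusted p = 0.00504). RCN2, a calcium-binding protein, fell by 2.43 (SE 0.15, adjusted p = 3.49e-07) and TXNDC12, a thioredoxin-like protein, fell by 2.08 (SE 0.13, adjusted p = 5.01e-07). With thapsigargin at 100 against 0 ng/mL, 16 fell, none rose and 10 did not pass (median -0.87), where 9% of all genes fell and 1.53% rose. RCN2 was at -2.24 and PRKCSH, the beta subunit of glucosidase II, at -1.97. Thapsigargin without doxycycline gave 8 higher and 1 lower, with HSPA5 at 2.87 and SDF2L1 at 2.80, where 6.45% of all genes were higher and 4.74% lower. In that comparison KDELR1 had -0.16, KDELR2 0.05 and KDELR3 -0.32, and these did not pass.

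Of 12 genes of the COPII coat, 4 rose, none fell and 8 did not pass at 100 ng/mL in vehicle-treated cells (median 0.22), led by SEC24D, a cargo-binding subunit (1.64, SE 0.12, adjusted p = 1.18e-06) and PREB, the exchange factor for SAR1 (1.01, SE 0.14, adjusted p = 0.000205). With thapsigargin none rose, 1 fell and 11 did not pass (median 0.36), SEC16A at -0.63. Over all genes, 0.838% rose and 7.49% fell with vehicle, and 1.53% rose and 9% fell with thapsigargin. Of 8 COPI genes tested, 2 rose in vehicle-treated cells (median 0.31), led by COPG1 (0.87, SE 0.13, adjusted p = 0.000444), and none passed with thapsigargin (median 0.28). The study chose a gene list on these samples that includes SEC24D, PREB and other coat genes, so these counts are not independent evidence of their direction. No gene of the 10 is in that list.

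Among the other sorting proteins, 9 p24 family genes were tested. Their median at 100 against 0 ng/mL was 0.12 in vehicle-treated cells with no call and -0.79 with thapsigargin, where 3 fell, led by TMED9 (-1.05, SE 0.19, adjusted p = 0.00156). Of 8 other ER export receptors tested, 1 fell in vehicle-treated cells, BCAP31 (-0.79, SE 0.14, adjusted p = 0.00147), and 2 with thapsigargin, BCAP31 (-1.65) and LMAN2L, a relative of LMAN2 (-0.71). The shares of all genes called in these comparisons were 7.49% lower and 0.838% higher with vehicle, and 9% lower and 1.53% higher with thapsigargin. Among known cargo of LMAN1 with MCFD2, 3 of 5 genes were tested and 2 fell in vehicle-treated cells, the cathepsins CTSZ (-0.86, SE 0.11, adjusted p = 0.00011) and CTSC (-0.77, SE 0.13, adjusted p = 0.00132). Both tested cargo genes of SURF4, NUCB1 (-1.06, SE 0.13, adjusted p = 9.98e-05) and SDF4 (-0.78, SE 0.13, adjusted p = 0.00124), fell as well. With thapsigargin NUCB1 was at -1.46 and SDF4 at -1.27, and both passed. Of the 3 tested cargo genes of LMAN1 with MCFD2, 1 fell with thapsigargin and 2 did not pass, 1 of them above 0 (median -0.65).

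**Figure D4:**
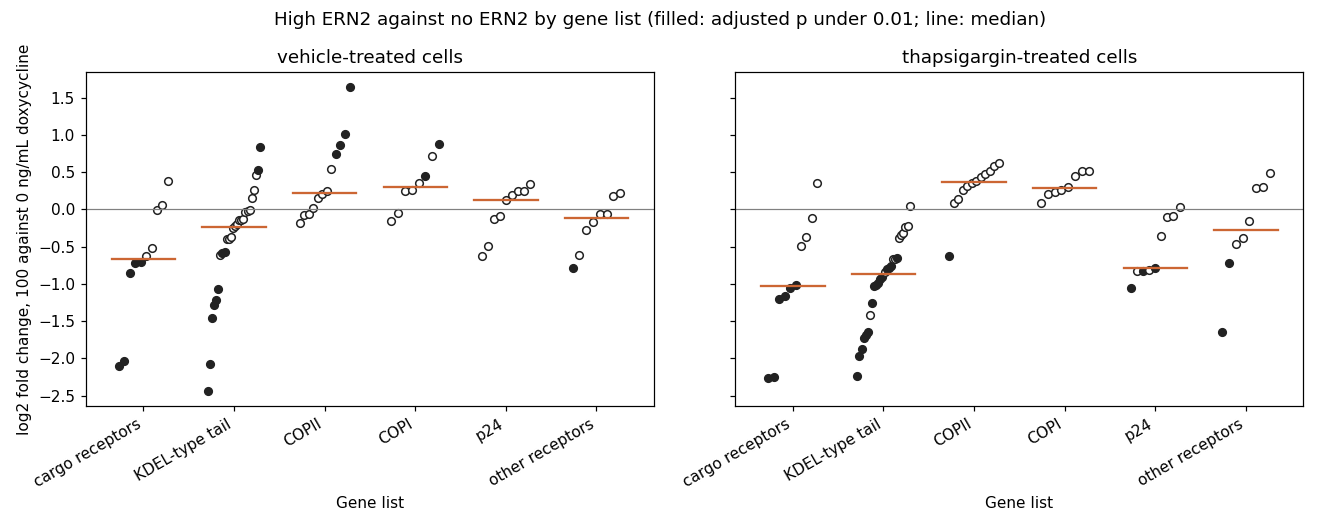
log2 fold change at 100 against 0 ng/mL doxycycline of each gene tested (points, filled where the adjusted p was under 0.01) in the 10 cargo receptor genes and 5 other lists, in vehicle- and in thapsigargin-treated cells, with a line at each median. The medians of the cargo receptors are -0.67 and -1.03, and those of the COPII and COPI coats lie above 0 in both panels.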

How the data were processed

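RNA-Seq of the HEK293doxERN2 cell line covered 18 libraries in 6 groups of 3, grouped by the sample labels, and columns were matched to samples by the column numbers that the labels give. From stranded mRNA libraries read at a single end, the authors made STAR alignments within VIPER, and the deposited values are raw counts per gene symbol, neither normalized nor filtered. The submitters' processing notes name hg38, STAR and DESeq2. Versions, annotation and strand setting of the counting are not given in the sources used here. Of 25435 rows, 28 carry a symbol turned into a date, and none is a member.

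The members and gene lists were chosen with earlier results of these data known. Members, ERN2, up to 2 highest and 2 lowest genes of each other list and the 2 genes most like each called member are named. In each comparison only the groups concerned were used. Genes were kept by filterByExpr (minimum count 10), scaled by TMM and tested with edgeR 4.0.16 (quasi-likelihood test) in R 4.3.3, with Benjamini-Hochberg adjustment over all genes and a threshold of 0.01. CPM were scaled by TMM over 18 libraries, and log2 profiles used a prior count of 2. The code was tested on simulated data. Precision at this depth rests mainly on 3 libraries per group.

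Same-numbered libraries of the no and low ERN2 groups with thapsigargin deviated together (correlations 0.40, 0.34 and 0.47), so the blocked fit stands beside that result. The labels give only the numbers. Over 45 same-numbered pairs of all groups the mean was 0.07, against -0.04 for other pairs, and no other pair of groups had correlations all this high. The no ERN2 groups with vehicle and with thapsigargin had 0.08, 0.20 and 0.27, all above 0. Alternatives were DESeq2 1.42.0, RLE size factors, no filter, a fit with all 6 groups, the replicate block and each library left out. Positions and transcripts came from GENCODE 29 and promoters from RefSeq (GRCh38.p14). Figures used matplotlib 3.10.9 in Python 3.11.15.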

Additional observations from a re-analysis of the deposited data

How the results depend on the processing

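Of 242 alternative values of members called, 204 stayed past the threshold, 38 lost the call and 0 changed sign. Of 918 values of members not called, 834 stayed on their side, 53 passed and 31 changed sign, of which 29 came from leaving out a library. The cause was not tested.

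Counts of members called that moved by over 1.5 times are given here. DESeq2 called 2 in place of 0 for low against no ERN2 with vehicle, 2 in place of 1 for thapsigargin without induction, 2 in place of 0 for thapsigargin at high ERN2, and 1 in place of 0 for low against no ERN2 with thapsigargin and for the interaction at high ERN2. Without a filter on low counts the first 3 of these were 3, 2 and 1. In 1 fit with all 6 groups, thapsigargin called 0 without induction and 4 at high ERN2. Counts over all genes moved as well. In the order of the DESeq2 counts they were 378 in place of 28, 2302 in place of 1611, 728 in place of 29, 39 in place of 0 and 341 in place of 6. Without the filter the first 3 were 623, 2173 and 299, and the fit with all 6 groups called 1273 and 941 genes under thapsigargin without induction and at high ERN2. For high against no ERN2 with vehicle, 5 members became 6 with DESeq2, 7 without the filter and 4 in the fit with all 6 groups. The 1203 genes called in that comparison became 1609, 1598 and 1105. LMAN1 at high against no ERN2 with vehicle turned from -0.00 to 0.0060 on the log2 scale with DESeq2 and to 0.0057 with RLE size factors.

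With the replicate number as a block, 4 members were called for low against no ERN2 with thapsigargin, 3 in place of 1 for thapsigargin without induction and 3 in place of 0 for thapsigargin at low ERN2. Outside the first of these, the libraries share only a number. Same-numbered libraries had correlations of 0.08, 0.20 and 0.27 for thapsigargin without induction, lower than in the first. At low ERN2 they had 0.50, -0.03 and 0.44. The block changed the count of all genes called from 0 to 564 in the first comparison, 1611 to 3571 in the second and 212 to 3620 in the third. It lowered others: for high against no ERN2 with vehicle from 5 to 4 members, with MCFD2 lost, and from 1203 to 750 genes, and for high against low ERN2 with thapsigargin from 6 to 4 members and from 805 to 384 genes.

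Leaving out each library in turn gave 0 to 4 members called for low against no ERN2 with vehicle, 5 to 6 for high against no, 0 to 5 for high against low, 0 to 2 for thapsigargin without induction, 0 to 1 at low ERN2 and 0 to 3 at high ERN2. With thapsigargin it gave 0 to 0 for low against no ERN2, 5 to 8 for high against no and 2 to 7 for high against low. The interaction gave 0 to 3 at high ERN2. Over all genes, the dose comparisons with vehicle gave 0 to 2743, 915 to 1397 and 0 to 496 in that order. Thapsigargin against vehicle gave 731 to 1901, 28 to 494 and 4 to 2568. The dose comparisons with thapsigargin gave 0 to 0, 763 to 3950 and 42 to 2712, and the interaction at high ERN2 2 to 1286.

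Log2 fold changes near 0 changed sign when 1 library was left out. With vehicle, low against no ERN2, LMAN1 ranged from -0.037 to 0.14 and KDELR3 from -0.0087 to 0.19, and for high against no from -0.077 to 0.090 and -0.12 to 0.17. For high against low they ranged from -0.12 to 0.061 and -0.22 to 0.092, and ERGIC2 from -0.18 to 0.12. Under thapsigargin without induction LMAN1 ranged from -0.15 to 0.21 and KDELR2 from -0.16 to 0.17, at low ERN2 LMAN1 from -0.089 to 0.21 and SURF4 from -0.15 to 0.038, and at high ERN2 ERGIC2 from -0.077 to 0.42. For low against no ERN2 with thapsigargin ERGIC2 ranged from -0.11 to 0.057, LMAN1 from -0.082 to 0.29 and KDELR2 from -0.23 to 0.14. In the interaction at high ERN2 ERGIC3 ranged from -0.26 to 0.000215 and KDELR3 from -0.25 to 0.072.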
